A study of Mus musculus with 8 samples.

Results

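The subunits of GABA-A and glutamate receptors were described in amygdalar intercalated cells of mouse embryos with and without intact Tshz1. The members were defined by gene symbol, with earlier results of these data known. They were 16 GABA-A subunit genes (alpha, beta, gamma, delta, epsilon, theta and pi). The other 26 were glutamate receptor genes of the AMPA, kainate, NMDA, delta and metabotropic families. All 42 were present among the 32543 genes of the deposited tables, and 35 of them passed the filter on low counts that left 14157 genes for testing. Intercalated cells (ITCs) are small GABAergic neurons in clusters around the basolateral amygdala. Tissue holding the amygdala was dissected at E16.5 (the embryonic day counted from the plug) from mice kept on an outbred background, embryos of 1 genotype were pooled, and GFP-positive cells were sorted before RNA sequencing. The control pools were Tshz1GFP/+ and the knockout pools Tshz1GFP/RA, so both genotypes carried the GFP allele of Tshz1 and the controls were themselves heterozygous for it. Each genotype has 4 libraries here, whereas the series' design text mentions triplicates. Titles carry the prefixes NX, NY, QT and RM, each shared by 1 control and 1 knockout library, and the labels do not say what a prefix marks or whether the pools were separate litters. The p-values below therefore measure the spread between these pools, which may be technical.

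GABA-A receptors are chloride channels assembled from several subunits, usually alpha and beta with gamma or delta. AMPA, kainate and NMDA receptors are cation channels opened by glutamate, whereas metabotropic glutamate (mGlu) receptors act through G proteins: group I through Gq, groups II and III through Gi or Go. In immature neurons an outward chloride driving force makes GABA depolarizing, and alpha2, alpha3 and alpha5 are subunits known from the embryonic forebrain. In the adult amygdala, ITCs receive glutamatergic input from the basolateral nucleus and the cortex, and inhibit the central nucleus.

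A pore-loop position of channel-forming glutamate subunits, called the Q/R site, is shown here for 7 genes. The remaining members were not searched for it. RNA editing is known to replace the glutamine codon there by one read as arginine in Gria2, Grik1 and Grik2, and the other genes, Grik3 among them, are shown for comparison. These windows are shown because Gria2, the most abundant glutamate subunit in these libraries, is the best known case of this editing. Each window holds 30 bases of coding sequence of the sense strand, from the GENCODE annotation of GRCm38, with the codon of the Q/R site in capitals.
Gria1: ctgggggccttcatgCAGcaaggatgtgac
Gria2: ttgggtgcctttatgCAGcaaggatgcgat
Gria3: ttgggtgcttttatgCAGcaaggatgtgat
Gria4: ctgggtgcctttatgCAAcaaggatgtgac
Grik1: gttggagctctcatgCAGcaaggatcggag
Grik2: gttggagctctcatgCAGcaaggttctgag
Grik3: atgggctccctgatgCAGcaaggatctgaa
The AMPA windows lie within 1 coding exon each, at chr11:57243079-57243108 on the plus strand (Gria1), chr3:80706899-80706928 on the minus strand (Gria2), chrX:41610250-41610279 on the plus strand (Gria3) and chr9:4464125-4464154 on the minus strand (Gria4). The kainate windows are joined from 2 coding exons, between chr16:87936108-87940559 on the minus strand (Grik1), chr10:49240789-49244346 on the minus strand (Grik2) and chr4:125691192-125693969 on the plus strand (Grik3). The capital codon was CAA in Gria4 and CAG in the other 6 genes, all glutamine. Against the Gria2 window, that of Gria1 differed at 5 bases, Gria3 at 2 and Gria4 at 4, and those of Grik1, Grik2 and Grik3 at 9, 10 and 8. The reference letters are the unedited genome, and the deposited counts hold no bases, so editing itself was not measured.

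Library totals ran from 5785612 to 14535867 expected counts, and a floor of 3 counts equalled 0.186 to 0.545 CPM. CPM are counts scaled to library size and to TMM composition factors, whereas TPM are the authors' length-scaled values and are used here whenever different genes are compared. Tshz1, the disrupted gene, went from 381 ± 115 CPM in controls to 79.1 ± 29.4 CPM in knockouts (SD, n = 4) and was lower in the knockout (log2 fold change -2.27, SE 0.30, adjusted p = 0.0388, edgeR quasi-likelihood test with Benjamini-Hochberg adjustment), but this call was lost when control NX, QT or RM or knockout NY, QT or RM was left out (edgeR adjusted p from 0.0657 to 0.183). It was 1 of only 5 genes called at an adjusted p under 0.05 (0.0353% of those tested, 1 higher and 4 lower), and without control NX, control QT, control RM, knockout NY or knockout QT 0 genes were called. The 9 ITC markers summed to between 1282 and 2646 TPM in control and between 856 and 1827 TPM in knockout libraries, with none at 0 in any library. Each list of markers of other cells had counts in both genotypes, and no marker was at 0 in all 8 libraries. Gfap was at 0 in every control library, however, and Col3a1 in every knockout library. For all 7 lists control NX was the lowest control library. The 9 astroglial and radial progenitor genes summed to 146 TPM in control NX and to between 926 and 1610 TPM in the other controls (456 to 1569 TPM in knockouts). Most of each of these sums was Fabp7, at 79.5 TPM in control NX and 746 to 1475 TPM in the other controls. The 9 pallial glutamatergic neuron genes summed to 34.0 TPM in control NX and to between 134 and 299 TPM in the other controls (161 to 438 TPM in knockouts). The sums of 10 genes for interneurons of the medial and caudal ganglionic eminences were highest in the RM pools, at 458 TPM in control and 371 TPM in knockout. Sst alone gave 278 TPM of the former and 246 TPM of the latter. The ranges in control and in knockout libraries were 131 to 305 and 141 to 481 TPM for 6 genes of dividing cells, 5.26 to 97.1 and 12.1 to 65.6 TPM for 7 microglial genes, 0.52 to 29.0 and 1.76 to 22.8 TPM for 5 oligodendrocyte precursor genes, and 0.08 to 17.2 and 0.41 to 2.95 TPM for 7 vascular genes.

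No receptor gene passed the test over all genes. The summed level of the members was between 672 and 1255 TPM per library, of which glutamate receptors made up 523 to 934 TPM and GABA-A subunits 132 to 322 TPM. The 2 extremes were both knockout libraries, NX and RM. None of the 35 tested members was called at an adjusted p under 0.05, by a test that called 0.0353% of all genes (0.00706% as higher and 0.0283% as lower). At an unadjusted p under 0.05 there was 1 member, the group III metabotropic receptor gene Grm4, which is 2.86% of the members against 3.62% of all genes (1.7% higher and 1.91% lower in the knockout). The same gene alone had groups that did not overlap in CPM, again 2.86% of the members against 2.59% of all genes (1.13% with the knockout higher and 1.46% with it lower). Both shares of the members are a single gene near these backgrounds. Of the tested members 19 were fitted higher and 16 lower in the knockout, and their median log2 fold change was 0.06, beside -0.01 over all genes, of which 50.6% were fitted lower. Among GABA-A subunits 8 of 12 tested were fitted higher and 4 lower, with a median of 0.12. Among glutamate receptors 11 of 23 were fitted higher and 12 lower, with a median of -0.00. Apart from Grm4 (adjusted p = 0.382), all tested members had an adjusted p of 1.00 after rounding, so the differences given for them below are descriptions that the test does not separate from the spread between libraries. Because these are bulk samples of sorted cells, fewer cells of a type and less RNA per cell cannot be told apart.

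**Figure D1:**
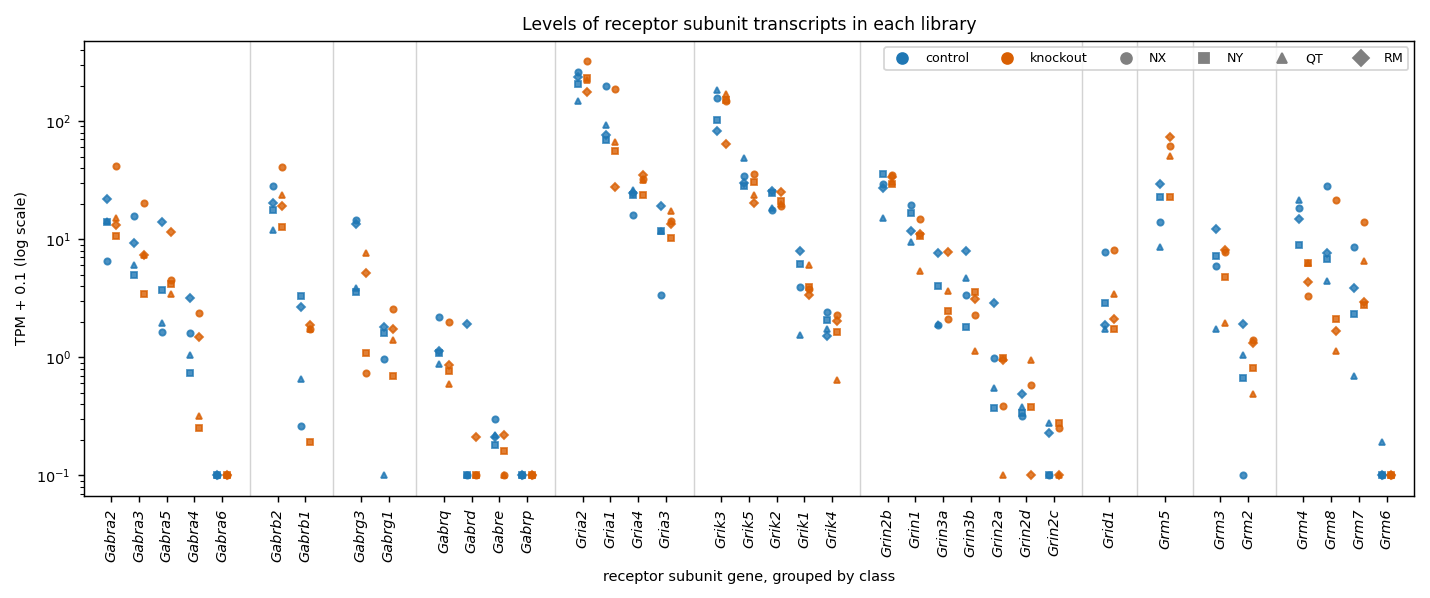
Deposited level of members in each library (TPM plus 0.1, log scale), grouped by receptor class, with 1 point per library, colours for genotype and symbols for title prefix. Of the genes plotted, Gria2 at 225 TPM and Grik3 at 132 TPM on average over the 8 libraries stand highest, and the genotypes interleave for nearly all of them.

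**Figure D2:**
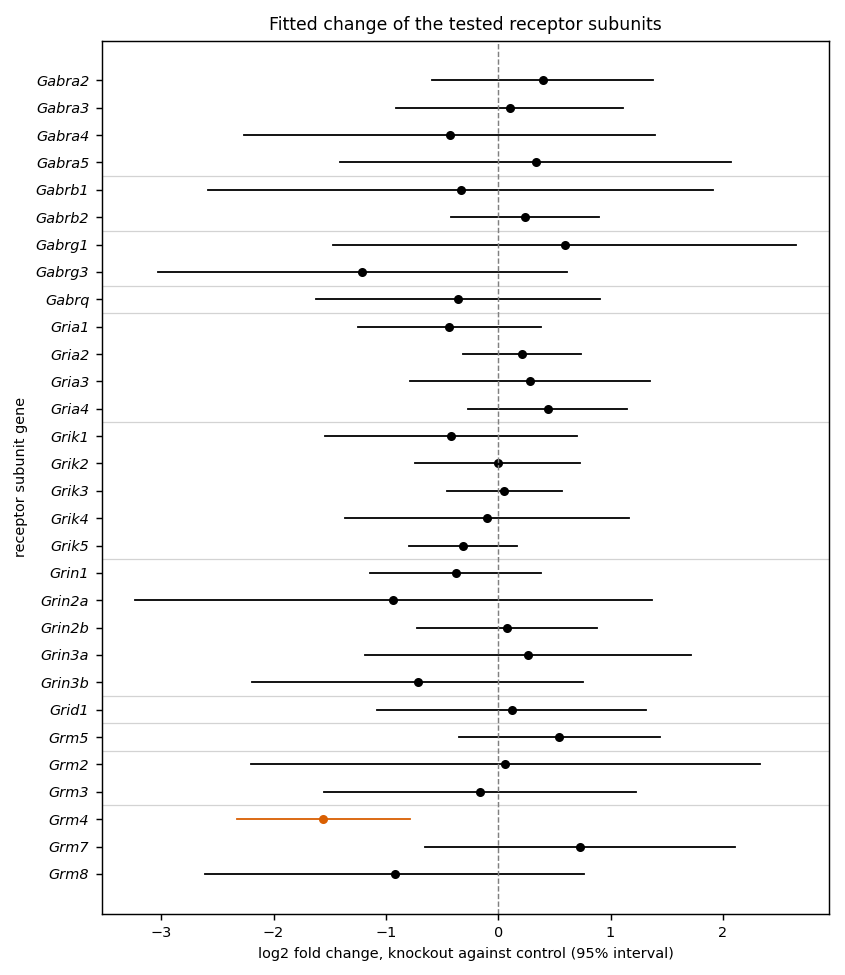
Fitted log2 fold change of tested members (knockout against control, edgeR) with 95% intervals, ordered by class. The interval of Grm4, -2.32 to -0.79, does not reach 0, and those of the other genes plotted include it.

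Of the GABA-A genes, the beta subunits had the largest sum, 89.1 to 204 TPM per library. Values are given here and below in the order NX, NY, QT and RM. Gabrb2 (beta2) had 90.6, 59.4, 41.3 and 78.9 CPM among controls and 107, 44.7, 71.4 and 95.2 CPM among knockouts. The groups overlapped, with NX highest in each genotype, and the log2 fold change was 0.24 (SE 0.30, interval 0.746-fold to 1.86-fold). Gabrb1 (beta1) was low, with 0.124, 3.11, 0.459 and 2.73 CPM (control) and 1.16, 0.0828, 1.37 and 2.50 CPM (knockout). Its lowest library was NX in control and NY in knockout, and the interval of its log2 fold change, -2.58 to 1.91, excluded little.

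The alpha subunits, which together with gamma set the benzodiazepine site, were led by Gabra2, followed by Gabra3 and Gabra5. Gabra2 (alpha2) had 6.57, 17.9, 15.7 and 31.6 CPM among controls and 38.7, 13.1, 16.9 and 24.8 CPM among knockouts. Knockout NX was the highest library and control NX the lowest, so 1 prefix held both ends of the range, and the log2 fold change was 0.40 (SE 0.45). Gabra3 (alpha3) had 25.9, 9.99, 10.7 and 21.6 CPM (control) and 30.8, 6.54, 13.4 and 22.1 CPM (knockout), with NX and RM above NY and QT in both genotypes. Its log2 fold change was 0.10 (SE 0.47). Gabra5 (alpha5) had 1.61, 4.74, 2.14 and 20.7 CPM among controls and 4.56, 5.22, 4.26 and 22.1 CPM among knockouts. The RM library was highest in each genotype, and these are also the pools with the highest sum of interneuron markers. That sum was mostly Sst (278 TPM in control RM and 246 TPM in knockout RM). Of the listed interneuron genes, only Sst and Npy had their highest TPM in the RM library of both genotypes. The part of interneurons in the RM values of Gabra5 was not tested. Gabra2 exceeded Gabra3 in 7 of 8 libraries by TPM and Gabra3 exceeded Gabra5 in 5 of 8, so the order of the latter pair did not hold beyond their spread. Gabra4, a subunit known from the mature forebrain, averaged 1.27 TPM and lay below Gabra5 in 8 of 8 libraries. Gabra6, a subunit of cerebellar granule cells, had 0 counts in all 8 libraries, which allows up to 0.186 CPM in the deepest and 0.545 CPM in the shallowest library.

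The gamma genes summed to 18.9 to 65.1 TPM per library. Gabrg3 (gamma3) had 9.92, 2.74, 2.68 and 11.99 CPM (control) and 0.340, 0.828, 4.57 and 6.32 CPM (knockout). The knockout values were lower in 3 of 4 prefixes, and the groups overlapped (log2 fold change -1.21, SE 0.84, interval -3.03 to 0.61). Knockout NX and NY held only 5 and 10 counts. The size of the Gabrg3 difference changed with the libraries kept and the test: the log2 fold change was -1.88 without knockout RM and -0.56 without both NX libraries (edgeR), and with limma-voom it was -2.04 (unadjusted p = 0.0431, adjusted p = 1.00). Gabrg1 (gamma1) had 1.80, 3.55, 0 and 5.27 CPM among controls and 4.90, 1.33, 3.04 and 6.49 CPM among knockouts, below Gabrg3 by TPM in 7 of 8 libraries.

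The subunits of extrasynaptic or restricted receptors were low. Gabrq (theta) had 4.65, 2.74, 1.91 and 3.27 CPM (control) and 3.95, 1.74, 1.22 and 2.83 CPM (knockout). In each of the 4 prefixes the knockout library had less of it, and the log2 fold change was -0.36 (SE 0.58). Gabrd, whose delta subunit forms receptors outside synapses, had 11 counts in control RM, 1 in knockout RM and 0 in the other 6 libraries. Gabre (epsilon) had 0 to 2 counts per library, and Gabrp (pi) 0 in all 8. These 3 genes and Gabra6 were not tested. Without strand, counts are uncertain where exons overlap on opposite strands, as for Gabra4 with Gabrb1 and Gabra5 with Gm9962, and also for Grin2b and Grm2 among the glutamate genes below.

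GABA-A genes lie in clusters, among them Gabrg1, Gabra2, Gabra4 and Gabrb1 within 1398 kb on chromosome 5 of GRCm38, and Gabre, Gabra3 and Gabrq within 587 kb on the X chromosome. Average levels within these clusters were uneven, with Gabra2 and Gabra3 each above the rest of their cluster. On chromosome 5, Gabra2 averaged 17.03 TPM beside 1.45 TPM for Gabrb1, 1.27 TPM for Gabra4 and 1.26 TPM for Gabrg1. On the X chromosome, Gabra3 averaged 9.18 TPM beside 1.09 TPM for Gabrq.

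AMPA receptors carry most fast excitatory transmission, and their genes had the largest sum of all the classes, 253 to 552 TPM per library. Gria2, whose edited GluA2 subunit makes the channel nearly impermeable to calcium, was the most abundant member at 225 TPM. It had 525, 514, 354 and 768 CPM among controls and 623, 558, 566 and 757 CPM among knockouts. Control QT was the lowest library, the RM libraries the highest of each genotype, and the log2 fold change was 0.21 (SE 0.24). Gria1 (GluA1) had 416, 177, 223 and 241 CPM (control) and 373, 142, 158 and 109 CPM (knockout). Every knockout pool lay below the control pool of its prefix, the NX pools lay highest in each genotype, and the groups overlapped (log2 fold change -0.43, SE 0.37, interval -1.25 to 0.38). Gria4 (GluA4), known from the developing brain and from interneurons, had 27.0, 56.1, 54.8 and 80.1 CPM among controls and 64.8, 49.7, 69.4 and 111 CPM among knockouts, with a log2 fold change of 0.44 (SE 0.33). Gria3 (GluA3) ran from 6.63 CPM in control NX to 63.8 CPM in control RM.

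As a share of the AMPA TPM, Gria2 held 60.1% ± 7.33 in control and 66.6% ± 6.27 in knockout libraries (SD, n = 4), and Gria1 29.7% ± 9.74 in control and 20.4% ± 9.56 in knockout libraries (SD, n = 4). Both ranges overlapped between the genotypes. Gria2 stood above Gria1 in 8 of 8 libraries, Gria1 above Gria4 in 7 of 8 and Gria4 above Gria3 in 8 of 8. The enzyme that edits the Q/R codon of Gria2, ADAR2, is encoded by Adarb1, which had 25.4 ± 5.21 CPM in controls and 22.5 ± 5.45 CPM in knockouts (SD, n = 4) (log2 fold change -0.17, SE 0.27).

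Kainate receptors were dominated by Grik3, the gene of GluK3, a subunit with low glutamate affinity. Grik3 had 638, 517, 832 and 479 CPM (control) and 567, 725, 773 and 493 CPM (knockout). Control QT and knockout QT were the highest of their genotypes and the RM libraries the lowest, with a log2 fold change of 0.05 (SE 0.24, interval 0.727-fold to 1.48-fold). Grik5, whose GluK5 subunit needs a partner of the GluK1 to GluK3 kind to form channels, had 58.1, 59.4, 92.5 and 73.2 CPM among controls and 57.1, 62.4, 44.4 and 63.9 CPM among knockouts. Its log2 fold change was -0.31 (SE 0.22), and the knockout value was lower in 3 of 4 prefixes. Grik2 (GluK2) had 34.5, 62.4, 43.6 and 74.3 CPM (control) and 29.9, 48.4, 45.4 and 90.7 CPM (knockout), with a log2 fold change of -0.00 (SE 0.34).

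Grik3 made up 66.1% ± 8.26 in control and 69.3% ± 9.13 in knockout libraries (SD, n = 4) of the kainate TPM. When shares were taken of CPM, without length, its average over all libraries was 82.5% in place of 67.7%. Grik5 held 10.7% to 20.5% and Grik2 7.23% to 21.9% of the kainate TPM. Grik1 and Grik4 averaged 4.50 and 1.69 TPM.

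NMDA receptors combine the obligatory GluN1 subunit with GluN2 or GluN3 subunits. Grin2b, the embryonic GluN2 gene, had 59.5, 75.9, 38.6 and 135 CPM among controls and 87.8, 60.4, 52.2 and 125 CPM among knockouts. Its RM libraries were highest and its QT libraries lowest in each genotype, and the log2 fold change was 0.08 (SE 0.37). Grin2b was 95.8% of the GluN2 TPM on average, from 89.2% in control RM to 98.6% in control NY. Grin2a, which is known to replace Grin2b after birth, had 7.996 CPM in control RM and between 0 and 3.16 CPM in the other libraries. Grin2c and Grin2d, with at most 5 and 13 counts in a library, were not tested.

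Grin1 had 32.4, 33.4, 16.99 and 27.1 CPM (control) and 22.1, 20.7, 9.74 and 32.1 CPM (knockout), below Grin2b by TPM in 8 of 8 libraries. Its log2 fold change was -0.38 (SE 0.35). The libraries do not mark the strand, and the antisense gene Grin1os, listed with 5.33 to 44.8 expected counts, equalled 3.03% to 23.1% of the Grin1 counts, so part of the Grin1 signal is uncertain. Grin3a (GluN3A), a subunit of immature synapses that lowers calcium entry, had 6.20, 16.6, 6.89 and 37.3 CPM among controls and 6.67, 9.94, 14.0 and 49.4 CPM among knockouts, with RM again highest in each genotype and a log2 fold change of 0.26 (SE 0.67). Grin3b averaged 3.38 TPM and shares exonic sequence with Tmem259 on the other strand.

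The delta receptor genes encode synaptic adhesion partners of cerebellins and were low. Grid1 had 11.6, 5.26, 2.75 and 3.82 CPM (control) and 11.2, 2.98, 5.63 and 5.66 CPM (knockout), with NX highest in each genotype and a log2 fold change of 0.12 (SE 0.55).

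The metabotropic genes held the single member with an unadjusted p under 0.05. Grm4 encodes mGlu4, a group III receptor known as a presynaptic brake on transmitter release, and lies at chr17:27422387-27521403 on the minus strand of GRCm38, with no exon of another gene on the opposite strand. It had 520, 262, 551 and 203 counts in control and 78, 159, 80 and 84 counts in knockout libraries. Scaled, these were 32.2, 19.4, 42.2 and 36.9 CPM among controls and 5.31, 13.2, 12.2 and 14.0 CPM among knockouts. The lowest control pool, NY, lay above the highest knockout pool, RM, and each knockout pool lay below the control of its prefix. The means were 32.7 ± 9.74 CPM in controls and 11.2 ± 3.97 CPM in knockouts (SD, n = 4), a ratio of 2.93 between control and knockout, and the fitted log2 fold change was -1.56 (SE 0.35, interval -2.32 to -0.79). The unadjusted p was 0.000794, and the adjusted p over all genes was 0.382, so Grm4 was not called (edgeR quasi-likelihood test, Benjamini-Hochberg). An exact two-sided permutation test of its log2 CPM gave p = 0.0286, the smallest that 4 against 4 libraries allow. DESeq2 was the exception among the tests run, giving a log2 fold change of -1.54 at an adjusted p = 0.0167. Per length it had 18.2, 8.82, 21.5 and 14.6 TPM (control) and 3.20, 6.21, 6.18 and 4.22 TPM (knockout), again without overlap. The 9 ITC markers were all fitted lower in the knockout as well (median log2 fold change -0.35). The only one called was Tshz1, the disrupted gene itself. The others ran from -1.57 (Drd1) to -0.04 (Pax6). Pax6, Gad1 and Oprm1 were each higher in the knockout in 2 of 4 prefixes, whereas Foxp2 and Slc32a1 were lower in 4 of 4. The part of these markers in the Grm4 difference was not tested.

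**Figure D3:**
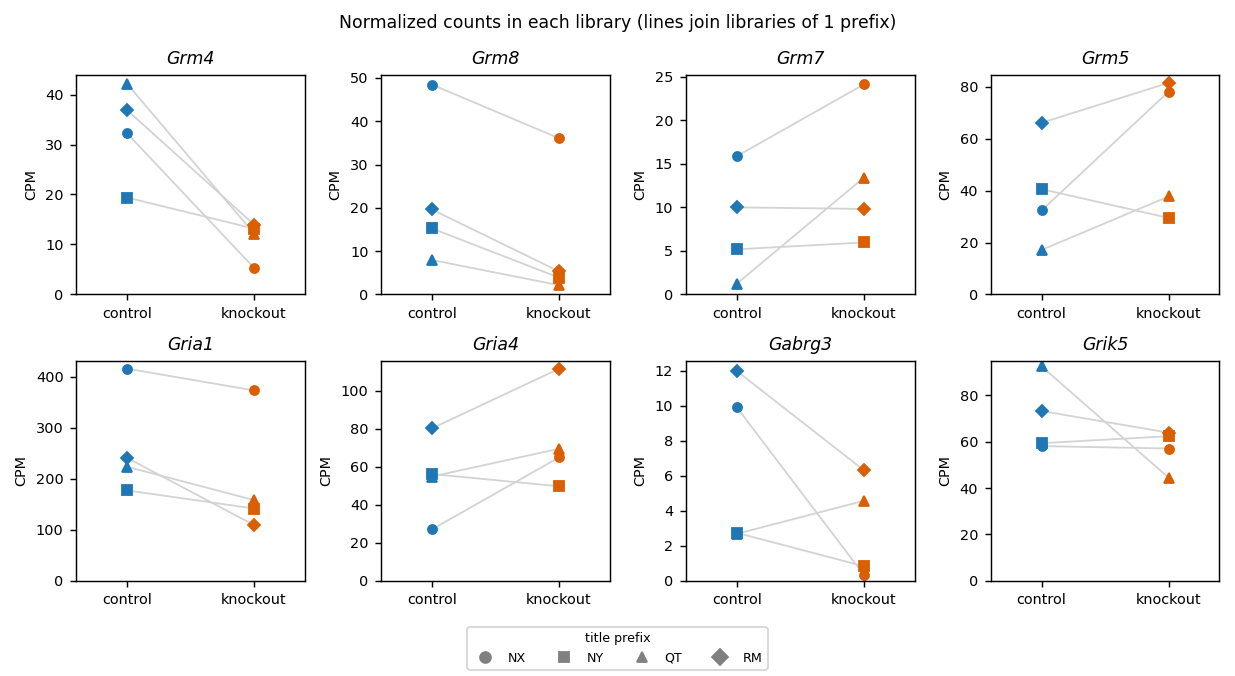
Normalised counts (CPM) of selected members in each library, control beside knockout, with symbols for the title prefix and lines joining libraries of 1 prefix. The control values of Grm4 (19.4 to 42.2 CPM) all lie above its knockout values (5.31 to 14.0 CPM), and the groups of the other genes overlap.

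The other group III receptor genes did not follow 1 pattern. Grm8 (mGlu8) had 48.5, 15.2, 7.96 and 19.6 CPM among controls and 36.1, 3.89, 2.13 and 5.32 CPM among knockouts. The knockout value was lower in 4 of 4 prefixes, yet both NX pools lay above all others, so that knockout NX exceeded 3 of the controls and the fit gave -0.92 (SE 0.78, unadjusted p = 0.258). Without knockout NX the log2 fold change was -2.60 (adjusted p = 0.380, edgeR), and without control NX and knockout QT together it was 0.11, so its size rests on single pools. Grm7 (mGlu7), a presynaptic receptor of low glutamate affinity, had 15.9, 5.18, 1.22 and 10.0 CPM (control) and 24.1, 5.96, 13.4 and 9.82 CPM (knockout), with a log2 fold change of 0.73 (SE 0.64) that was 1.33 without control NX and 0.27 without knockout NX. Its exons overlap the model Gm20387 on the other strand. Grm6, known from retinal bipolar cells, had 2 counts in control QT and 0 in the other libraries.

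As shares of the group III TPM, Grm7 held 15.5%, 12.6%, 2.23% and 14.5% in the control libraries and 35.8%, 24.5%, 47.2% and 32.8% in the knockout libraries, without overlap. This share joins the values of Grm4, Grm7 and Grm8, so it is no evidence separate from the level of Grm4. The summed group III level was 54.7, 17.7, 26.5 and 26.0 TPM in control and 38.5, 10.9, 13.7 and 8.61 TPM in knockout libraries, and it overlapped between genotypes.

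In group I, Grm5, the gene of mGlu5, had the highest average of the mGlu genes, 35.4 TPM over both genotypes (18.7 TPM in controls and 52.1 TPM in knockouts). By TPM, Grm5 exceeded Grm4 in 6 of 8 libraries. Grm5 lay below Grm4 in control NX and control QT, and below Grm8 in control NX. Its normalised counts were 32.4, 40.6, 17.1 and 66.2 CPM among controls and 78.2, 29.5, 37.8 and 81.5 CPM among knockouts, with a log2 fold change of 0.55 (SE 0.41, unadjusted p = 0.211) and overlapping groups. In TPM it had 14.0, 22.8, 8.47 and 29.4 TPM (control) and 61.8, 22.5, 50.6 and 73.6 TPM (knockout), a ratio of knockout to control means of 2.79, beside 1.45 in CPM. Between the 2 scales stands the transcript length that RSEM assigns to the gene in each library, the abundance-weighted mean over 4 transcript models. That length was 5139, 3263, 4112 and 3576 bases in control libraries and 3096, 2536, 1671 and 1500 bases in knockout libraries. Each knockout value was below every control value, with means of 4023 ± 823 and 2201 ± 749 bases (SD, n = 4). The log2 difference in length was -0.91, with an unadjusted p of 0.0127 and an adjusted p of 1 over 8417 genes with 2 or more models (limma), and an exact two-sided permutation test gave p = 0.0286, again the smallest possible. Of 26 members that could be compared in this way, 1 (3.85%) had groups that did not overlap, beside 2.04% of all genes (0.95% with the knockout shorter), and 3.6% of all genes had an unadjusted p under 0.05. By these shares, the members as a group were near the background. On the TPM scale, where this length enters, Grm5 had a log2 difference of 1.45 (log2 of TPM plus 1, limma, unadjusted p = 0.00294, adjusted p = 0.948). Whether the transcripts differed, or reads were assigned differently, was not tested.

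**Figure D4:**
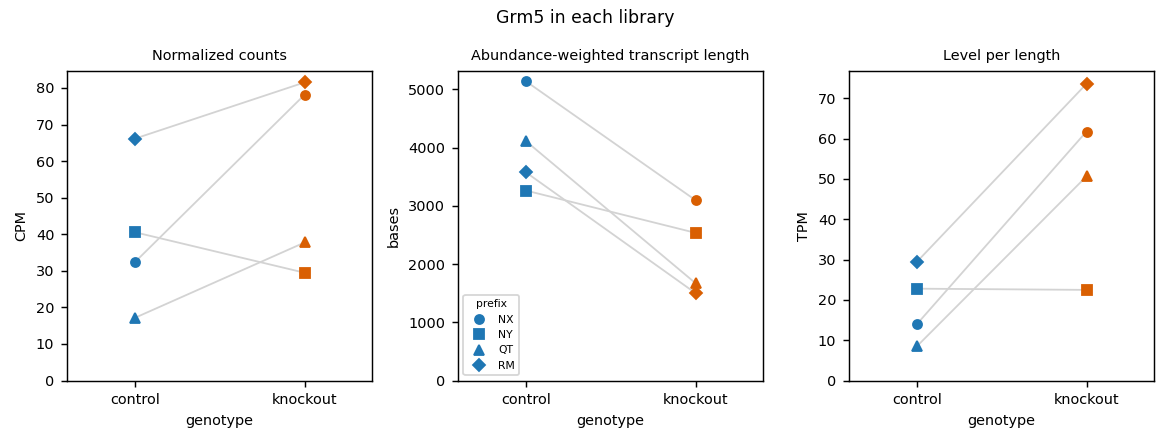
Grm5 in each library as CPM, as abundance-weighted transcript length in bases and as TPM, with grey lines joining libraries of 1 title prefix. The lengths of the knockout libraries (1500 to 3096 bases) lie below those of the control libraries (3263 to 5139 bases), whereas the CPM and the TPM values overlap.

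Of the summed mGlu TPM, Grm5 took 18.5%, 46.0%, 21.7% and 41.4% in control libraries and 55.8%, 56.1%, 74.4% and 78.0% in knockout libraries, and Grm4 took 24.0%, 17.8%, 55.2% and 20.6% and then 2.89%, 15.5%, 9.07% and 4.48%. Neither share overlapped between the genotypes in TPM, and both contain the difference in Grm5 length. In CPM, which leave length out, Grm5 averaged 40.0% of the mGlu sum over all 8 libraries and Grm4 20.8%, beside 49.0% and 18.7% in TPM. These averages join both genotypes, so they do not show whether either share stays apart once length is left out.

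The group II genes encode autoreceptors coupled to Gi or Go. Grm3 (mGlu3), which astrocytes also express, had 9.05, 13.8, 2.83 and 26.5 CPM among controls and 11.1, 8.70, 3.20 and 23.3 CPM among knockouts. The QT libraries were lowest and the RM libraries highest in each genotype, and the log2 fold change was -0.16 (SE 0.64). Grm2 (mGlu2) had 0, 1.04, 1.53 and 3.45 CPM (control) and 1.43, 0.911, 0.457 and 3.33 CPM (knockout), with control NX at 0, where 3 counts would be 0.186 CPM.

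**Figure D5:**
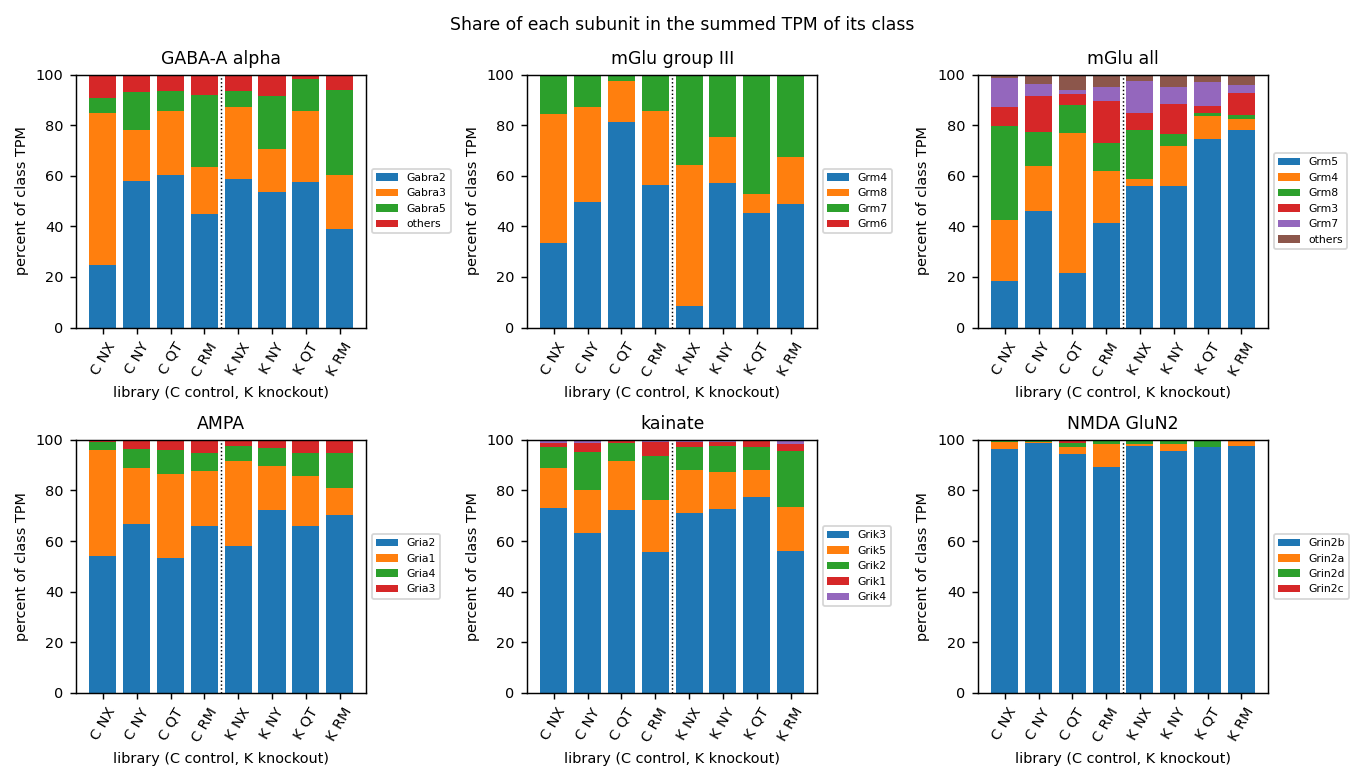
Share of each subunit in the summed TPM of its class, 1 bar per library (C, control; K, knockout), for GABA-A alpha, group III mGlu, all mGlu, AMPA, kainate and GluN2 genes, with the remaining genes of the alpha and all-mGlu panels joined as others. Gria2, Grik3 and Grin2b lead their classes in every library, and the Grm5 share runs from 18.5% to 46.0% in control and from 55.8% to 78.0% in knockout libraries.

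The genes that assemble, anchor and accompany these receptors were counted from lists of their own, beside a median log2 fold change of -0.01 over all genes. None of their tested members was called by the edgeR test. Of 13 tested genes for GABA-A clustering and assembly, 4 were fitted higher and 9 lower (median -0.07). Lhfpl4, a transmembrane partner that places GABA-A receptors at synapses, had 107, 108, 128 and 131 CPM among controls and 103, 99.0, 54.8 and 60.9 CPM among knockouts, without overlap (log2 fold change -0.57, unadjusted p = 0.0317, adjusted p = 1.00). Gphn, the gene of the scaffold gephyrin, had 46.2 ± 7.37 CPM in controls and 46.9 ± 18.1 CPM in knockouts (SD, n = 4).

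Of 17 tested AMPA and kainate auxiliary genes, 5 were fitted higher and 12 lower (median -0.28), and 0 of them had an unadjusted p under 0.05. Cacng7, a transmembrane AMPA regulatory protein, had the smallest p of this list at 0.0761 (edgeR) and went from 22.1 ± 9.47 CPM in controls to 14.4 ± 2.39 CPM in knockouts (SD, n = 4). Its groups did not overlap (16.4 to 36.2 CPM in controls, 10.8 to 15.8 CPM in knockouts), as was the case for 2.59% of all genes. Among 23 scaffold and partner genes, 9 were fitted higher and 14 lower (median -0.13). Shank1, a postsynaptic density scaffold, had the smallest p of these at 0.0651, with 258 ± 36.8 CPM in controls and 183 ± 64.9 CPM in knockouts (SD, n = 4).

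The editing enzyme list had 3 tested genes, of which 1 was fitted higher and 2 lower (median -0.17). Adarb2, a relative of ADAR2 without known editing activity, had the smallest p, with 155 ± 58.9 CPM in controls and 81.8 ± 16.4 CPM in knockouts (SD, n = 4) (log2 fold change -0.92, unadjusted p = 0.00472, adjusted p = 0.884). Among 6 glutamate transporter genes, 2 were fitted higher and 4 lower (median -0.44). Slc1a1, the neuronal uptake carrier, had 66.4, 33.0, 32.9 and 38.7 CPM (control) and 31.9, 19.1, 20.1 and 30.8 CPM (knockout), without overlap (log2 fold change -0.75, unadjusted p = 0.0258, adjusted p = 1.00).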

How the data were processed

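The submitters' processing notes name Trimmomatic 0.33, RSEM 1.2.22, Bowtie2 and the build mm10. For the gene models RSEM used, the release is not given in the sources used here. Each library has, per the file headers, RSEM expected counts, which are estimated and need not be whole, together with TPM, FPKM (not used) and an abundance-weighted transcript length per gene. The deposited TPM are scaled to length and library total and keep no depth. The tables of the whole series and the sample files held the same values (largest difference 0 over 16 columns). Per the labels' protocols, a NuGEN Ovation amplification preceded Nextera XT library preparation, and no step named there marks strand. The fragments carry no molecular identifiers, so floors of 3 counts reflect counting error alone.

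After rounding of the expected counts, genes were tested in R 4.3.3 by edgeR 4.0.16 (filterByExpr, TMM, glmQLFit and glmQLFTest, genotype as the single term), with Benjamini-Hochberg adjustment over 14157 genes and an adjusted p under 0.05 as the call. Permutation tests enumerated all 70 assignments of log2 CPM (prior count 2). Lengths were compared as log2 with limma 3.58.1. The procedure was tested on simulated counts, but its power for differences of the sizes described here is not given. Members were defined by symbol, and some of them are not reported here. Values in every library are given for reported members with an unadjusted p under 0.05 or among the first 3 of their class by TPM, and of each other list the tested gene with the smallest p is named. Gria3, Grin2a, Gphn, Adarb1, Gabbr1, Gabbr2, Glra2 and Glrb were named after their values were seen. The members and lists were chosen with earlier results of these data known. Positions and sequences are from GENCODE M21 on GRCm38. Alternatives changed the composition factors, the filter, the test (DESeq2 1.42.0, limma-voom, limma on log2 of TPM plus 1 or plus 0.1), the threshold, the prefix as a block and the libraries left out.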

Additional observations from a re-analysis of the deposited data

Results flagged for a closer look

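The tested members described here were checked in each genotype, 60 groups of 4 libraries, for 1 library whose gap to its nearest neighbour took up most of the group's range (above Dixon's 95% limit), and 4 groups had one. Chance flags about 1 group in 20. In 3 of the 4 the library was RM. Gabra5 (alpha5) stood at 20.7 CPM in control RM, against 1.61 to 4.74 CPM in the other controls, and at 22.1 CPM in knockout RM, against 4.26 to 5.22 CPM. Grin2a (GluN2A) stood at 7.996 CPM in control RM, against 0.666 to 1.80 CPM in the other controls. Grm8 (mGlu8) stood at 36.1 CPM in knockout NX, against 2.13 to 5.32 CPM in the other knockouts, and control NX was also the highest control library for this gene.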

How the results depend on the processing

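Grm4 was fitted lower in all 22 alternatives (log2 fold change -1.83 to -1.32) and was called in 1 of them, DESeq2, which thus called 1 receptor gene where the other alternatives called 0. Of the 35 tested members 14 had 1 direction throughout (7 lower, 7 higher), and 21 changed it somewhere. Genes called overall numbered 9 without composition factors, 19 without the low-count filter, 39 with DESeq2, 2 with limma-voom, 10 on log2 of TPM plus 1 and 11 at a threshold of 0.1, beside 5. With single libraries or prefixes left out they numbered 0 to 5. Without control NX and knockout QT, a setting chosen after seeing the data, 0 genes were called and Tshz1 was at -2.11. On TPM plus 0.1, Tshz1 was at -2.37 (limma adjusted p = 0.0815), and with libraries left out at -2.55 to -2.11. By CPM, Grik3 was 82.5% of kainate counts (67.7% by TPM).

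Members close to 0 changed sign: Grik2 to 0.00983 with DESeq2 size factors and 0.00999 with DESeq2, Grm2 to -0.0108 without composition factors, Grm3 to 0.10 with voom, and on TPM plus 1 and plus 0.1 Gabra3 to -0.0404 and -0.0603, Grik3 to -0.00262 and -0.00298, with Grik1 at 0.00635 on the latter. Without control NX and knockout QT, Gabrq was at 0.12, Gria3 at -0.12, Grik3 at -0.03, Grik4 at 0.24, Grm2 at -0.08, Grm3 at 0.01 and Grm8 at 0.11. With libraries left out, the log2 fold changes ran from -0.24 to 0.81 for Gabra2, -0.29 to 0.51 for Gabra3, -0.96 to 0.0942 for Gabra4, -0.59 to 1.66 for Gabra5, -0.86 to 0.69 for Gabrb1, -0.71 to 0.12 for Gabrq, -0.12 to 0.79 for Gria3, -0.37 to 0.20 for Grik2, -0.0864 to 0.23 for Grik3, -0.53 to 0.24 for Grik4, -1.56 to 0.32 for Grin2a, -0.19 to 0.49 for Grin2b, -0.69 to 1.00 for Grin3a, -0.32 to 0.75 for Grid1, -0.60 to 0.82 for Grm2, -0.73 to 0.43 for Grm3 and -2.60 to 0.11 for Grm8. Among members with 1 direction throughout, all 22 alternatives spanned -2.04 to -0.56 for Gabrg3, 0.17 to 1.83 for Gabrg1 and 0.27 to 1.33 for Grm7, and Gabrg3 had an unadjusted p under 0.05 with limma-voom and on both TPM scales (0.0379 to 0.0431, adjusted p = 1.00). The cause was not tested.

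Fitted with a replicate block for the title prefix, 28 genes and 0 members were called, Grm4 was at -1.58 (edgeR adjusted p = 0.108) and Gabrb1 at 0.20. Same-prefix deviations correlated at 0.385 (NX), 0.303 (NY), 0.066 (QT) and 0.450 (RM), and knockout QT slightly more with control RM (0.072). Every other library correlated best with its own prefix, a hint from the data that prefixes mark something shared. The labels do not say so, and the QT pair was close to 0, so the prefixes were not used as pairs. Genes under about 5 CPM rest on few counts, and 3 counts were 0.186 to 0.545 CPM.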

Other observations

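Related receptors that the selection by symbol leaves out were also read in these libraries. Of 13 genes for GABA-A rho, GABA-B and glycine receptors and GABA-B partners, 5 were tested, with 4 fitted higher and 1 lower in the knockout and 0 called (edgeR, median log2 fold change 0.08). Gabbr1, the ligand-binding GABA-B subunit, averaged 124 ± 34.8 TPM in controls and 142 ± 37.5 TPM in knockouts (SD, n = 4), and its obligatory partner Gabbr2 11.5 ± 5.05 TPM in controls and 7.34 ± 4.66 TPM in knockouts (SD, n = 4). Glra2, the fetal glycine receptor alpha subunit, averaged 18.02 ± 7.34 TPM in controls and 17.2 ± 1.92 TPM in knockouts (SD, n = 4), beside 6.72 ± 1.71 TPM in controls and 8.86 ± 5.87 TPM in knockouts (SD, n = 4) for the beta subunit Glrb. Kctd12, an auxiliary GABA-B subunit, had the smallest p of the list, with 20.2, 44.2, 20.7 and 33.8 CPM among controls and 242, 51.7, 71.4 and 40.8 CPM among knockouts. Every knockout library was above the control of its prefix, knockout NX stood far above the rest, and knockout RM lay below control NY (log2 fold change 1.78, SE 0.51, unadjusted p = 0.0043, adjusted p = 0.868, edgeR quasi-likelihood test with Benjamini-Hochberg adjustment).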
